A study of Mus musculus with 8 samples.

Results

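Irs2, the gene of insulin receptor substrate 2, held 68 of the 33774 sites of an m6A-eCLIP count table from αTC1-6 cells, an established mouse pancreatic alpha cell line. It was chosen by its number of sites, the largest among the 6531 genes to which 31928 sites could be assigned by RefSeq gene span. The genes next in that order were Il1r1 with 64 sites and Peg10 with 61, and the median gene had 3. The number of sites is therefore a description of how the gene was picked and not a result. M14KD cells had received siRNA against Mettl14, and SCR cells a scramble siRNA. Each genotype had 2 IP libraries, made from RNA bound to an anti-m6A antibody and crosslinked to it with ultraviolet light, and 2 Input libraries. M14KD libraries carry the replicate numbers 3 and 4, and SCR libraries 1 and 2. All libraries come from 1 cell line, siRNA lowers its target without removing it, and the labels do not say that replicates were separate cultures. All p-values therefore measure the spread between these libraries, which may be technical.

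Irs2 is a docking protein. When insulin or IGF-1 binds its receptor, the receptor phosphorylates tyrosines of Irs2, which then bind the regulatory subunits of PI3K and so pass the signal on to AKT, mTOR and FOXO factors. In pancreatic islets it is best known for sustaining beta cell mass, and alpha cells also carry insulin receptors. m6A is a methyl group on adenosine that Mettl3, together with its partner Mettl14, writes into messenger RNA, often near stop codons and in long exons. The Irs2 gene is known for a long first exon that holds nearly all of its coding sequence, followed by a long intron and a last exon that is mostly untranslated. Exon coordinates were not used here, so sites are placed by their distance from the annotated start of the gene.

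The siRNA target was measured at 2 sites. Mettl14 had 42 and 25 reads in M14KD IP libraries and 78 and 81 in SCR IP libraries. In Input it had 32 and 22 reads in M14KD, against 64 and 44 in SCR. The groups did not overlap in either kind of library, and the log2 fold change of M14KD over SCR was -1.17 (SE 0.24) in IP and -0.96 (SE 0.27) in Input. Neither passed after adjustment over all genes (adjusted p = 0.157 in IP and 0.261 in Input, edgeR's quasi-likelihood test). Mettl3 had no site. Library totals over all sites were 10207383 to 10918559 reads in IP and 3438530 to 3637740 in Input, so an Irs2 site is measured more precisely in IP. Of 16 alpha cell markers 13 had a site, led by glucagon, Gcg, while none of 8 beta cell, 3 delta and PP cell, 4 exocrine and 4 stromal, vessel or blood markers had one. Levels are given as CPM, the reads at a site per 1000000 reads of that library over all sites. The summed alpha markers were at 40270 to 40292 CPM in M14KD IP libraries, against 34301 to 35222 CPM in SCR IP libraries. In Input they were at 98768 to 99053 CPM in M14KD, against 85458 to 87741 CPM in SCR. Not all markers rose: of the 13, 1 had a log2 fold change below 0 in IP and 4 in Input. The part of these markers in the Irs2 values below was not tested.

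The start of the Irs2 gene overlaps an antisense gene, 9530052E02Rik, whose RefSeq promoter window crosses Irs2 at chr8:11007600-11007899 (GRCm38.p6) and holds 3 Irs2 sites. This is the stretch of Irs2 for which sequence could be read here. It lies 1030 to 1329 bases from the Irs2 start and is printed on the Irs2 strand, which is the minus strand, to show what surrounds sites that the antibody enriched. Capitals mark words of the m6A consensus, GGAC or GAAC or AGAC or AAAC or TGAC or TAAC with A or C or T after it.
Irs2 window: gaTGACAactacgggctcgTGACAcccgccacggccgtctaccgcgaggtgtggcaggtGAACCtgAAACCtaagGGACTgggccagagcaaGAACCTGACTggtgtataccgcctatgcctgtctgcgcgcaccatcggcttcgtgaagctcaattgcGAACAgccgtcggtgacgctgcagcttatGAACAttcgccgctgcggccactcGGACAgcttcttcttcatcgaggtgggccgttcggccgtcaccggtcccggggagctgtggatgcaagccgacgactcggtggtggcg

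The window holds 10 such words on the Irs2 strand and 2 on the other. Such words are common: 98.4% of 32851 RefSeq promoter windows of 300 bases hold at least 1, with a median of 5. The 3 sites inside it, each shown with the bases around it and the site itself in capitals, are the following.
site 6, 1098 bases from the start: caggtgaacctgaaAcctaagggactggg
site 7, 1223 bases from the start: gcagcttatgaacaTtcgccgctgcggcc
site 8, 1255 bases from the start: cggacagcttcttcTtcatcgaggtgggc

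Site 6 fell on the A before the C of the word AAACC. The nearest such A lay 3 bases upstream of site 7, in GAACA, and 11 bases upstream of site 8, in GGACA. Of all 29-base windows in the promoter table, 36.8% hold a word. A match is a description of letters and does not show a modified base.

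The 68 sites fell into 2 groups at the ends of the gene, which spans chr8:10984681-11008929 on the minus strand, 24249 bases. The start-side group had 38 sites between 266 and 4278 bases from the start. The end-side group had 30 sites between 21982 and 23978 bases, so its sites stood closer together. No site lay in the 17704 bases between them. Each site is 1 base long, and 63 of the 68 have a neighbour within 100 bases. The window in which reads were counted is not given in the sources used here, so neighbouring sites may count the same reads and are not independent, and a read may enter a sum more than once.

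Over its 68 sites the gene had 36488 and 37190 reads in M14KD IP libraries, or 3457 and 3643 CPM, and 43208 and 43620 reads in SCR IP libraries, or 3957 and 4125 CPM. In Input it had 5647 and 5643 reads in M14KD, or 1562 and 1641 CPM, and 6568 and 6727 reads in SCR, or 1816 and 1849 CPM. Both M14KD libraries lay below both SCR libraries in IP and again in Input.

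The mean level was 3550 ± 132 CPM in M14KD IP and 4041 ± 119 CPM in SCR IP, so the M14KD level was 87.9% of the SCR level (SD, n = 2 each). In Input the means were 1602 ± 55.7 CPM in M14KD and 1833 ± 23.4 CPM in SCR, and the M14KD level was 87.4% of the SCR level (SD, n = 2 each). The difference was thus of about the same size with and without antibody selection. On the gene sums, edgeR's quasi-likelihood test gave M14KD over SCR as -0.16 in IP on the log2 scale (SE 0.06, 95% interval -0.31 to -0.02, adjusted p = 0.311) and as -0.20 in Input (SE 0.07, interval -0.34 to -0.05, adjusted p = 0.352). Both had an unadjusted p under 0.05 and neither passed after adjustment. No gene sum did: 0% of 6381 genes were called in IP and 0% of 5826 in Input, while 14.1% and 10.2% had an unadjusted p under 0.05, and 47.6% and 50.6% had a log2 fold change below 0. Levels in CPM are shares of a library's reads and not amounts per cell. In bulk libraries, fewer cells holding Irs2 RNA and less of it in each such cell cannot be told apart.

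The interaction, which takes the M14KD change in Input off that in IP, was 0.01 on the log2 scale (SE 0.09, interval -0.18 to 0.21, adjusted p = 0.999, edgeR's quasi-likelihood test), where 0% of 6379 genes were called. Of all genes, 2.63% had an unadjusted p under 0.05 in that test and 49.6% lay below 0. The ratio of IP CPM to Input CPM was 2.21 and 2.22 in the 2 M14KD replicates and 2.18 and 2.23 in the 2 SCR replicates, so the groups overlapped. The interval limits a change of the summed ratio, relative to that of the typical gene, to between -0.18 and 0.21. It does not show that the ratio was equal. The libraries were scaled so that the typical gene lies near 0, so a change shared by most genes would not appear in this value.

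**Figure D1:**
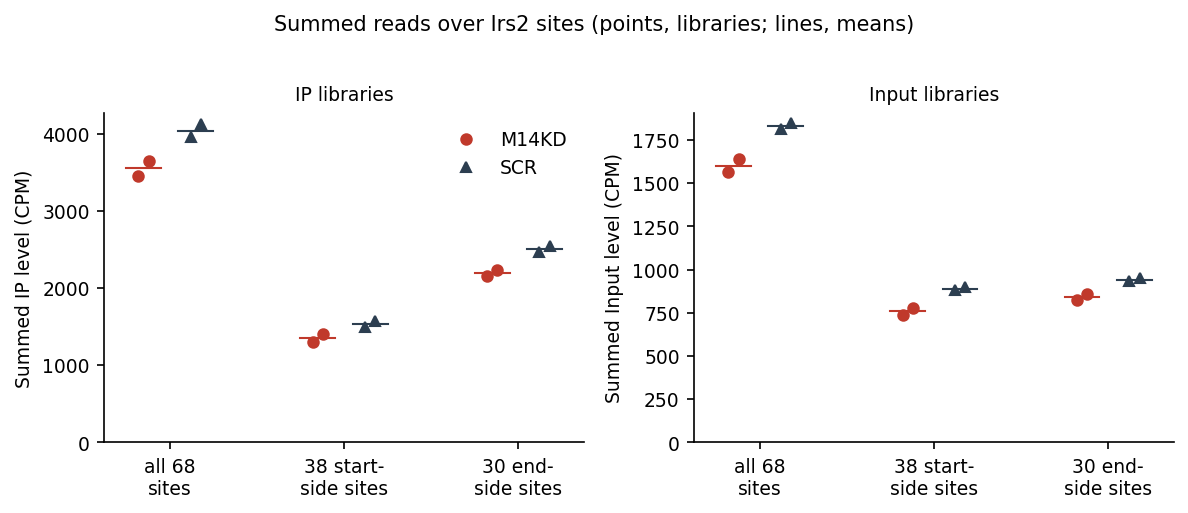
Summed level of Irs2 (y axis, CPM, scaled to the library's reads over all sites) for all 68 sites, the 38 start-side and the 30 end-side sites, in IP (left panel) and Input (right panel); points are libraries, horizontal lines are means of 2, circles are M14KD and triangles SCR. In each pair the 2 M14KD libraries lie below the 2 SCR libraries, with means of 3550 against 4041 CPM over all sites in IP.

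The antibody did not enrich Irs2 evenly. Summed over the gene, IP over Input was 0.46 on the log2 scale in M14KD (SE 0.07, adjusted p = 1.11e-05) and 0.45 in SCR (SE 0.07, adjusted p = 1.56e-05, edgeR's quasi-likelihood test). Genes called higher made up 35.5% of those tested in M14KD and 35.2% in SCR. These values are relative to the TMM scaling, which sets the typical site near 0. The scaling decides where 0 lies: when libraries were scaled on their least enriched features, the site lowest in SCR moved to -0.00 against -2.00, and the start-side sum described below to 2.09 against 0.14. Another scaling moves all sites of a comparison by about the same amount.

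Levels per site varied much more in IP than in Input. Mean IP levels ranged 23.5-fold over the 68 sites in M14KD, between 6.22 and 146 CPM with a median of 42.5, and 21.9-fold in SCR, between 7.31 and 160 CPM with a median of 51.5. Mean Input levels ranged 3.61-fold in M14KD, between 12.2 and 44.1 CPM, and 3.62-fold in SCR, between 14.5 and 52.4 CPM. Single Irs2 sites had 61 to 1736 reads in IP libraries and 42 to 192 in Input libraries.

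**Figure D2:**
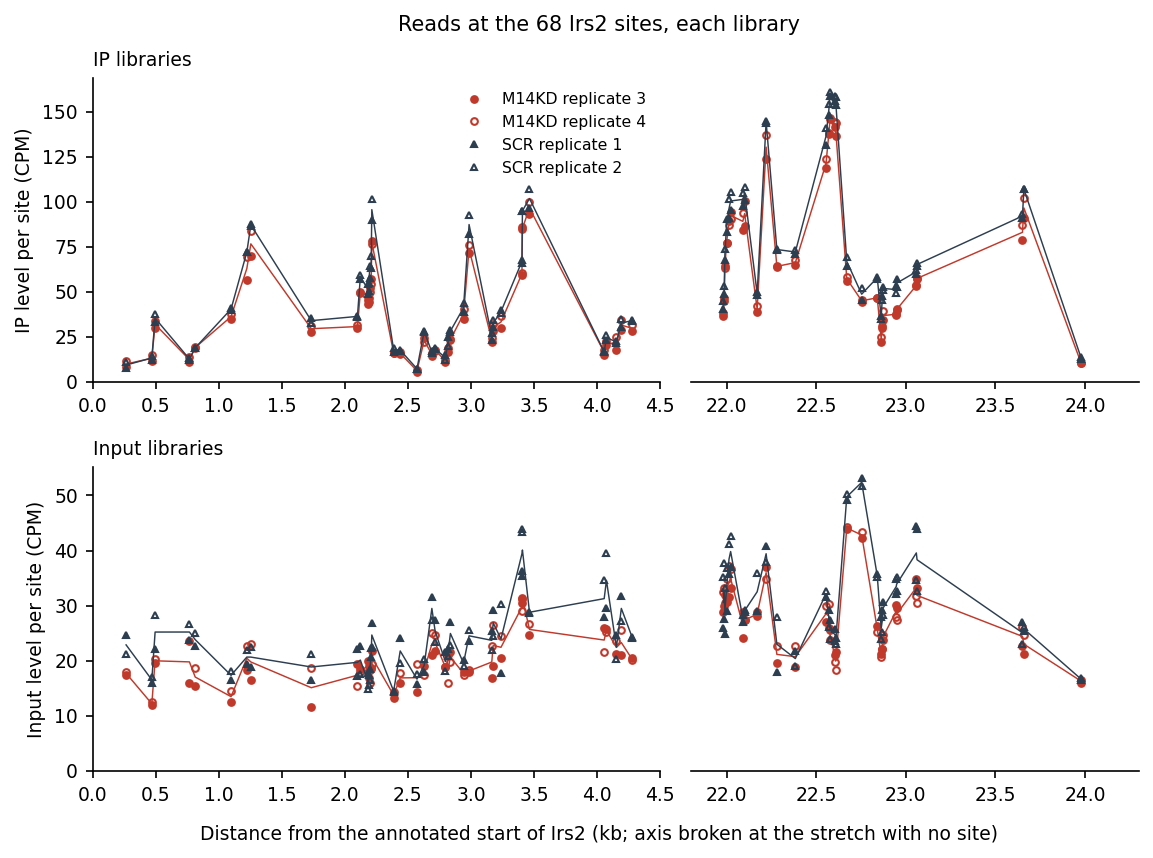
Level of each Irs2 site (y axis, CPM) in the 2 M14KD libraries (circles) and the 2 SCR libraries (triangles) against distance from the annotated start of Irs2 (x axis, kb, broken where there is no site), in IP (top) and Input (bottom); lines join group means. IP levels form narrow peaks at both ends of the gene, highest at about 22.6 kb, and vary more from site to site than Input levels; M14KD points lie mostly below SCR points.

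In M14KD, 30 of the 68 sites were called higher in IP than in Input, 23 lower and 15 neither; in SCR the counts were 29, 21 and 18 (edgeR's quasi-likelihood test, adjusted p under 0.05). Of all sites in the table, 33.8% were called higher and 33.1% lower in M14KD, and 34% higher and 33.4% lower in SCR. Of the Irs2 sites, 29 were called higher in both genotypes and 19 lower in both. With scaling on library totals alone, 48 Irs2 sites were higher and 8 lower in M14KD, and 48 higher and 9 lower in SCR. With scaling on the least enriched 25% of features, 67 were higher and none lower in M14KD, and 65 higher and none lower in SCR.

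The 5 sites with the largest ratios stood together 22555 to 22609 bases from the start and were also 4 of the 5 sites with the most IP reads. The peak was at chr8:10986320. That site had 1439 and 1468 reads in M14KD IP and 78 and 63 in M14KD Input, against 1681 and 1670 in SCR IP and 87 and 84 in SCR Input. Both IP libraries were far above both Input libraries in each genotype, with an IP to Input ratio of CPM of 7.02 in M14KD and 6.62 in SCR and a log2 fold change of 2.09 and 2.01 (adjusted p = 4.55e-16 in SCR, edgeR's quasi-likelihood test). Its neighbours in SCR were at 1.96 (chr8:10986322), 1.93 (chr8:10986351), 1.73 (chr8:10986358) and 1.37 (chr8:10986374). The remaining site among the 5 with the most IP reads, chr8:10986708, was at 1.16.

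In SCR the 5 lowest ratios were all on the start side. The first site of the gene, chr8:11008663, had 88 and 118 reads in M14KD IP and 63 and 62 in M14KD Input, against 85 and 116 in SCR IP and 89 and 77 in SCR Input. Its log2 fold change of IP over Input was -1.55 in M14KD and -2.00 in SCR (adjusted p = 7.49e-11 in SCR, edgeR's quasi-likelihood test). The other low sites in SCR were chr8:11006357 at -1.90, chr8:11008161 at -1.70, chr8:11004873 at -1.62 and chr8:11006239 at -1.55. In M14KD the lowest was chr8:11006357 at -2.16, and chr8:11006132, at -1.40 there, was at -1.28 in SCR. The last site of the gene, chr8:10984951, on the end side, was also among the 5 lowest in M14KD, at -1.35, and was at -1.03 in SCR. High and low sites lay within short distances of each other on the start side. The low site chr8:11006357 stood at 2572 bases, and the site at 2214 bases was at 1.19 in M14KD and 1.24 in SCR. Sites 7 and 8, printed above, stood at 1223 and 1255 bases and were both high. They were at 0.90 and 1.24 in M14KD and at 1.09 and 1.36 in SCR.

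**Figure D3:**
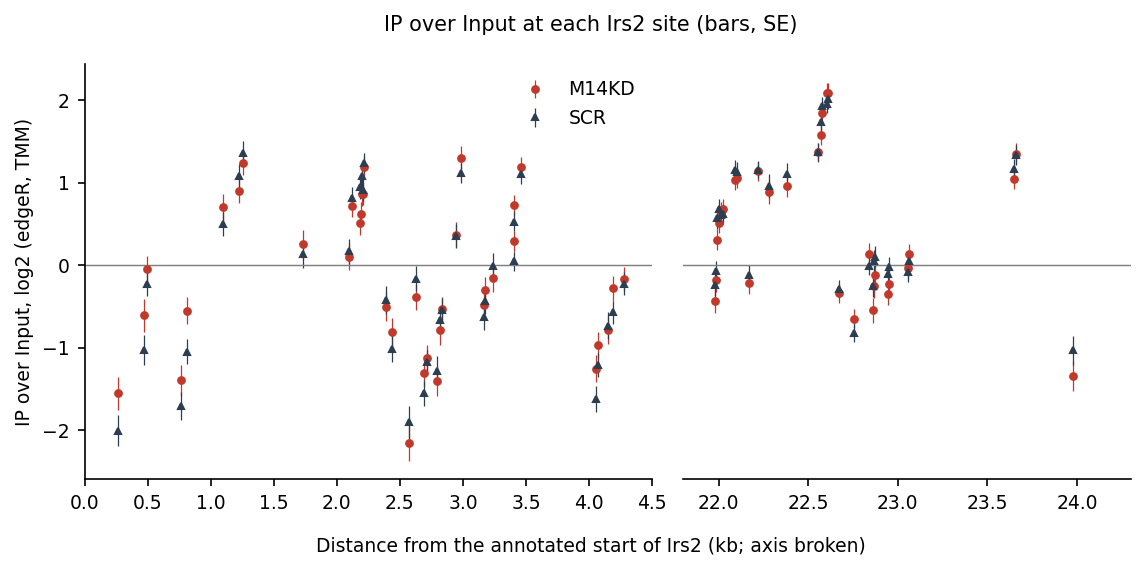
Log2 fold change of IP over Input (y axis, TMM scaling) at each of the 68 Irs2 sites against distance from the annotated start (x axis, kb, broken), in M14KD (circles) and SCR (triangles); bars are SE. The values run between -2.16 and 2.09 in M14KD and between -2.00 and 2.01 in SCR, and the profiles of the 2 genotypes run close together.

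The end-side group was enriched more than the start-side group. Its summed ratio of IP to Input CPM was 2.60 in both M14KD replicates and 2.64 and 2.68 in the SCR replicates, whereas that of the start-side group was 1.78 and 1.80 in M14KD and 1.69 and 1.76 in SCR. In M14KD the log2 fold change of IP over Input was 0.74 for the end-side group (SE 0.07, adjusted p = 4.64e-08) and 0.20 for the start-side group (SE 0.07, adjusted p = 0.0225, edgeR's quasi-likelihood test). In SCR it was 0.77 for the end-side group (SE 0.07, adjusted p = 3.03e-08) and 0.14 for the start-side group (SE 0.07, adjusted p = 0.0966). The start-side call in M14KD was lost without replicate 3 (0.22, adjusted p = 0.125) and without replicate 4 (0.17, adjusted p = 0.216), whereas with the replicate number as a block the start-side value in SCR, 0.14, passed (adjusted p = 0.00567). Among all groups of sites 34.7% were called higher in M14KD and 34.6% in SCR.

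A test of whether the groups of a gene differ in their ratio called Irs2 in both genotypes (edgeR, gene-level adjusted p = 0.000209 in M14KD and 3.74e-05 in SCR). Such differences were common, since 61% of the 1191 genes with several groups of sites were called in M14KD and 62% in SCR. The end-side sites held 61.5% to 62.2% of Irs2 reads in M14KD IP libraries and 61.8% to 62.3% in SCR IP libraries, against 52.5% to 52.9% in M14KD Input and 51.4% to 51.5% in SCR Input. The split at gaps over 5000 bases was chosen after the positions had been seen. Irs2 was not extreme among the 55 genes with at least 25 sites: 42.6% of its sites were called higher in SCR, where the median gene had 38.5%, and its fitted ratios spanned 4.01 log2 units, where the median gene spanned 3.63.

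In IP, most Irs2 sites were lower in M14KD than in SCR. The log2 fold change was below 0 at 64 of the 68 sites, where 48.8% of the 33348 sites tested were below 0, with a median of -0.15 and a range of -0.58 to 0.11. Sites of the same gene may share reads, so these counts are not of independent sites. As a gene, Irs2 was less unusual: 16.8% of gene sums in IP were as low as its sum or lower. At 53 sites both M14KD libraries lay below both SCR libraries in CPM, at none above and at 15 they overlapped. Of all sites, 25% lay below and 18.7% above in this way. An unadjusted p under 0.05 was reached at 18 sites, and at 13.3% of all sites. After adjustment over all sites, 5 Irs2 sites were called lower and 0 higher (edgeR's quasi-likelihood test), where 0.375% of all sites were called lower and 0.255% higher.

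The 5 called sites were neighbours, in an 87-base stretch 22863 to 22949 bases from the start that holds no other site. The strongest change was at chr8:10986060, with 318 and 315 reads in M14KD IP against 518 and 479 in SCR IP. Its log2 fold change was -0.58 (SE 0.10, adjusted p = 0.0134, edgeR's quasi-likelihood test), and in Input it had 80 and 76 reads in M14KD against 106 and 92 in SCR. The site at chr8:10986066, next to it, had 236 and 255 reads in M14KD IP against 398 and 372 in SCR IP, or -0.57 on the log2 scale (SE 0.11, adjusted p = 0.0211, edgeR's quasi-likelihood test). The groups were well separated at both sites.

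The other called sites were chr8:10986057 at -0.47 (adjusted p = 0.0342), chr8:10985982 at -0.43 (adjusted p = 0.0472) and chr8:10985980 at -0.42 (adjusted p = 0.0448, edgeR's quasi-likelihood test). Added up, the 5 sites had 1732 and 1770 reads in M14KD IP, or 164 and 173 CPM, against 2699 and 2466 in SCR IP, or 247 and 233 CPM. In Input they had 459 and 422 reads in M14KD, or 127 and 123 CPM, against 552 and 537 in SCR, or 153 and 148 CPM. M14KD lay below SCR in both kinds of library. The ratio of IP to Input CPM over the 5 sites was 1.29 and 1.41 in M14KD and 1.62 and 1.58 in SCR, whereas over the other 63 sites it was 2.29 and 2.29 in M14KD and 2.23 and 2.29 in SCR. The stretch was picked by its IP change, so these sums are given without a test. The 63 other sites had log2 fold changes in IP between -0.32 and 0.11, with a median of -0.13.

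The calls depended on both M14KD replicates: without replicate 3, or without replicate 4, 0 Irs2 sites were called lower in IP, and at these 5 sites the adjusted p was 0.231 to 0.554 without replicate 3 and 0.0507 to 0.145 without replicate 4. DESeq2 called 1 of the 68 lower, and it gave no adjusted p for chr8:10986066, so that site was not judged by it. None was called when the table was thinned to 1 site per 100 bases. Thinning left 25 Irs2 sites and removed 4 of the 5 by construction, and the remaining one, chr8:10985980, was at -0.42 there (adjusted p = 0.0706, edgeR).

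**Figure D4:**
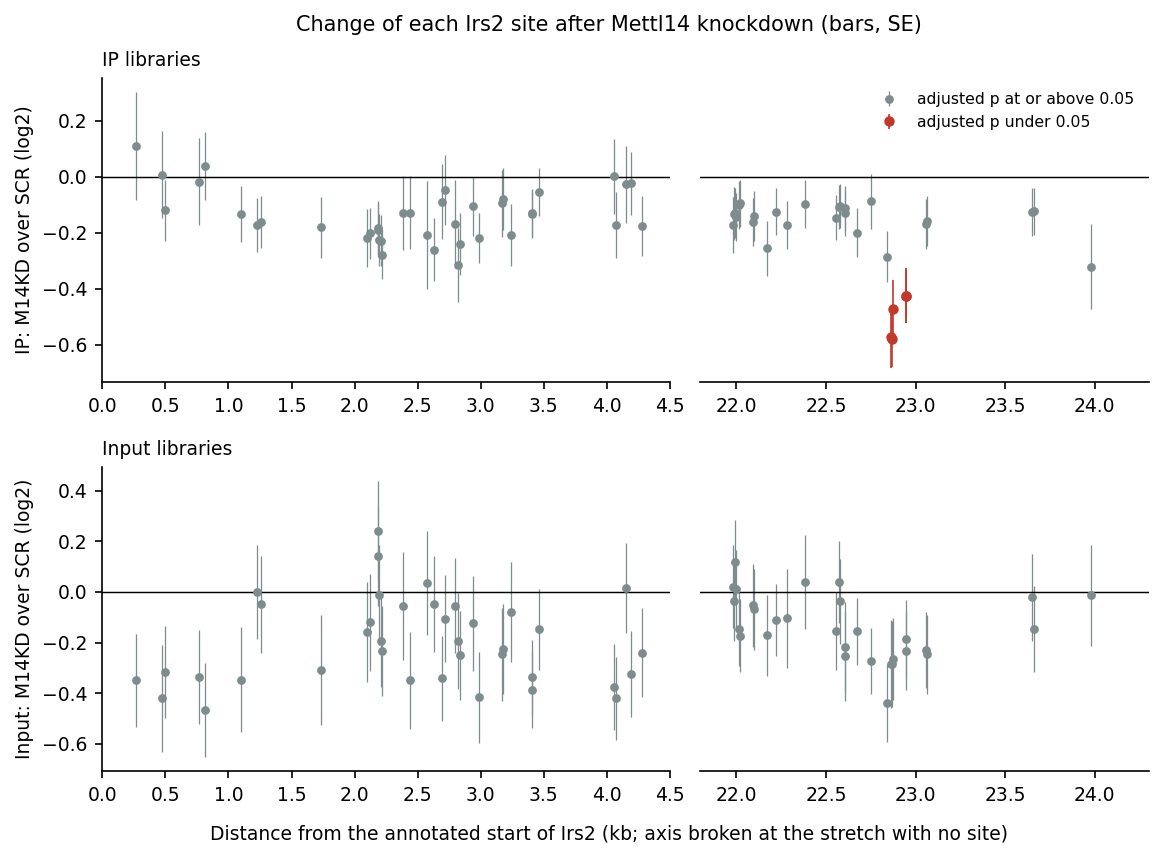
Log2 fold change of M14KD over SCR (y axis; bars, SE) at each Irs2 site against distance from the annotated start (x axis, kb, broken), in IP (top) and Input (bottom); red marks an adjusted p under 0.05. In IP 64 of 68 values lie below 0 and the 5 red points stand together near 22.9 kb, while in Input 58 of 68 lie below 0 and none is red.

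Whether the 5 sites changed more than the rest of the gene was asked by testing each site against the other sites of its gene in IP. No Irs2 site was called by this test, where 0.00333% of 30053 sites, a single site of another gene, were called. The most negative Irs2 value was -0.42 relative to its other sites, again at chr8:10986060 (edgeR, unadjusted p = 0.000263, not called after adjustment). The gene-level test for unequal change along Irs2 gave an unadjusted p of 0.0111 and no call after adjustment, where 0.0207% of 4837 genes were called. In Input the same test called 0% of 27396 sites and 0% of 4268 genes, and Irs2 had an unadjusted gene-level p of 0.828. The start-side and end-side sums had nearly equal differences in IP, -0.17 (SE 0.07, adjusted p = 0.312) and -0.18 (SE 0.06, adjusted p = 0.271, edgeR's quasi-likelihood test), where 0.0648% of groups of sites were called. The test of their difference gave an adjusted p of 0.998 for Irs2 in IP, where 0% of genes were called.

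Input libraries showed the same direction at most sites with wider errors. The log2 fold change was below 0 at 58 of 68 sites, where 49.6% of all sites were, with a median of -0.17 and a range of -0.47 to 0.24. These sites are not independent either, and 19.4% of gene sums in Input were as low as the Irs2 sum or lower. At 37 sites both M14KD libraries lay below both SCR libraries, at 1 above and at 30 they overlapped, where 19.8% of all sites lay below and 18.3% above. No Irs2 site was called and 8 had an unadjusted p under 0.05 (edgeR's quasi-likelihood test), where 0.0929% of 30147 sites were called and 8.69% had an unadjusted p under 0.05. DESeq2 also called 0. The median SE of an Irs2 site was 0.18 in Input and 0.10 in IP. The start-side sum was at -0.22 (SE 0.08, adjusted p = 0.357) and the end-side sum at -0.15 (SE 0.08, adjusted p = 0.537), where 0.0144% of groups of sites were called.

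At the 5 sites called in IP, the Input log2 fold change was -0.29 to -0.19 (SE 0.15 to 0.17), with adjusted p-values of 0.668 to 0.778 by edgeR's quasi-likelihood test. Their interaction was -0.31 to -0.20 (SE 0.18 to 0.20), and none was called. Over all 68 sites the interaction was below 0 at 37 and above 0 at 31, where 50.3% of all sites lay below, and its median was -0.05. Of 33356 sites 0% were called, and 3.72% had an unadjusted p under 0.05, against 2 of the 68 Irs2 sites. It was 0.06 for the start-side sum (SE 0.11) and -0.02 for the end-side sum (SE 0.10), where 0% of groups of sites were called, and the test of their difference gave an adjusted p of 0.982, where 0% of genes were called (edgeR). The median SE of the interaction at an Irs2 site was 0.20. The largest value, 0.50 at chr8:11008115 (SE 0.22), was not called either, so differences well above that error could also be missed at this depth.

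The first 5 Irs2 sites, 266 to 814 bases from the start, also lie in the span of 9530052E02Rik on the other strand (chr8:11007850-11054541), and whether reads were counted by strand is not given in the sources used here. Their log2 fold change in IP was -0.12 to 0.11, and they included 3 of the 4 Irs2 sites that were above 0, chr8:11008663 at 0.11, chr8:11008459 at 0.01 and chr8:11008115 at 0.04. The remaining site above 0 was chr8:11004873, at 0.00. In Input the same 5 sites were at -0.47 to -0.32, and none was called. At chr8:11008115 there were 203 and 194 reads in M14KD IP against 205 and 202 in SCR IP, and 56 and 64 in M14KD Input against 82 and 91 in SCR Input. M14KD lay below SCR in Input and close to it in IP. Without these 5 sites the Irs2 sum was -0.17 in IP (adjusted p = 0.307), -0.18 in Input (adjusted p = 0.375) and -0.00 in the interaction (adjusted p = 0.999, edgeR's quasi-likelihood test).

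The genes whose level followed the 8 libraries most like Irs2 were sought among 896 genes with at least 10 sites, by the Euclidean distance between log2 CPM values centred on each gene's mean. The nearest were Camsap1 (distance 0.105), a protein of microtubule minus ends, Morc2a (0.106), a chromatin ATPase, Prrc2b (0.135), Arhgap35 (0.138) and Asxl1 (0.140), a chromatin regulator. The median distance was 0.697. Camsap1 had a mean of 246 ± 2.15 CPM in M14KD IP and 270 ± 9.55 CPM in SCR IP, and of 108 ± 2.19 CPM in M14KD Input and 122 ± 2.26 CPM in SCR Input (SD, n = 2 each). All 8 points of such a comparison share the libraries and their scaling.

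Irs2 was the only insulin receptor substrate with many sites. Irs1, which does the same docking work in many tissues, had 4 sites and 12.8 and 13.3 CPM in M14KD IP, against 13.4 and 15.1 CPM in SCR IP. In Input it had 4.15 and 5.23 CPM in M14KD, against 3.87 and 5.50 CPM in SCR, and the groups overlapped. Irs3 and Irs4 had no site, nor had Igf1r, the IGF-1 receptor. The insulin receptor, Insr, had 3 sites and 24.2 and 25.1 CPM in M14KD IP, against 25.6 and 21.7 CPM in SCR IP, which overlapped. Sums rise with the number of sites, so levels are not compared between genes.

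Of 65 listed insulin signalling genes 41 had a site, and the tests covered 39 sums in IP, 38 in Input and 39 for the interaction. None was called in any of these, Irs2 included. In IP 27 were below 0 and 12 above, with a median of -0.10, and in Input 28 were below and 10 above, with a median of -0.11. Of all genes 47.6% were below 0 in IP, with a median of 0.01, and 50.6% in Input, with a median of -0.00. These shares are the background of the counts by role below as well. Unadjusted p-values under 0.05 were reached in IP by 10 lower and 1 higher, in Input by 7 lower and 1 higher, and in the interaction by 0. Of all genes, 14.1% had such a p for IP, 10.2% for Input and 2.63% for the interaction. Without Irs2 the medians were -0.08 in IP and -0.10 in Input. The list was drawn up with earlier results of these data known.

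Among the 9 docking proteins tested in IP, 5 were below 0 and 4 above. Nck1, an adaptor, was at 0.30 in IP (unadjusted p = 0.0341, adjusted p = 0.322, edgeR's quasi-likelihood test), the only member above 0 with such a p there. Among the 10 inhibitors tested, 9 were below 0 in IP. They included Trib3, a pseudokinase that binds AKT, at -0.64 in IP and -0.70 in Input (adjusted p = 0.0664 and 0.117), Ptpn11, the phosphatase SHP2, at -0.26 in IP, Cul7, a scaffold of the ubiquitin ligase that targets Irs1, at -0.50 in IP, and Grb10, which binds the insulin receptor, at -0.28 in Input. Grb10 had 468 and 533 CPM in M14KD Input against 615 and 599 CPM in SCR Input, and these did not overlap.

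Among 5 tested genes of PI3K and AKT, 3 were below 0 in IP. Pik3r2, a regulatory subunit that binds phosphorylated Irs2, was at -0.60 in IP and -0.35 in Input (adjusted p = 0.165 and 0.421, edgeR's quasi-likelihood test), and had 27.1 and 33.8 CPM in M14KD IP against 46.2 and 47.7 CPM in SCR IP. Akt1 was at -0.03 and Akt2 at -0.04 in IP. Of 11 downstream genes 8 were below 0 in IP, among them Mtor at -0.34, its partners Rptor at -0.32 and Mlst8 at -0.27, and the translation repressors Eif4ebp1 at -0.38 and Eif4ebp2 at -0.21, all with adjusted p-values of 0.206 to 0.333. In Input, Eif4ebp1 was at -0.35, Eif4ebp2 at -0.36, Tsc1, an mTOR inhibitor, at -0.37, and the kinase Rps6kb1 at 0.65 (adjusted p = 0.189 to 0.465). Of the 4 factors listed here as known to act on the Irs2 gene, 2 had a site. Creb1 was at 0.02 and its coactivator Crtc2 at -0.17 in IP, and neither was called. FOXO factors were listed with the downstream genes and not in this role.

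**Figure D5:**
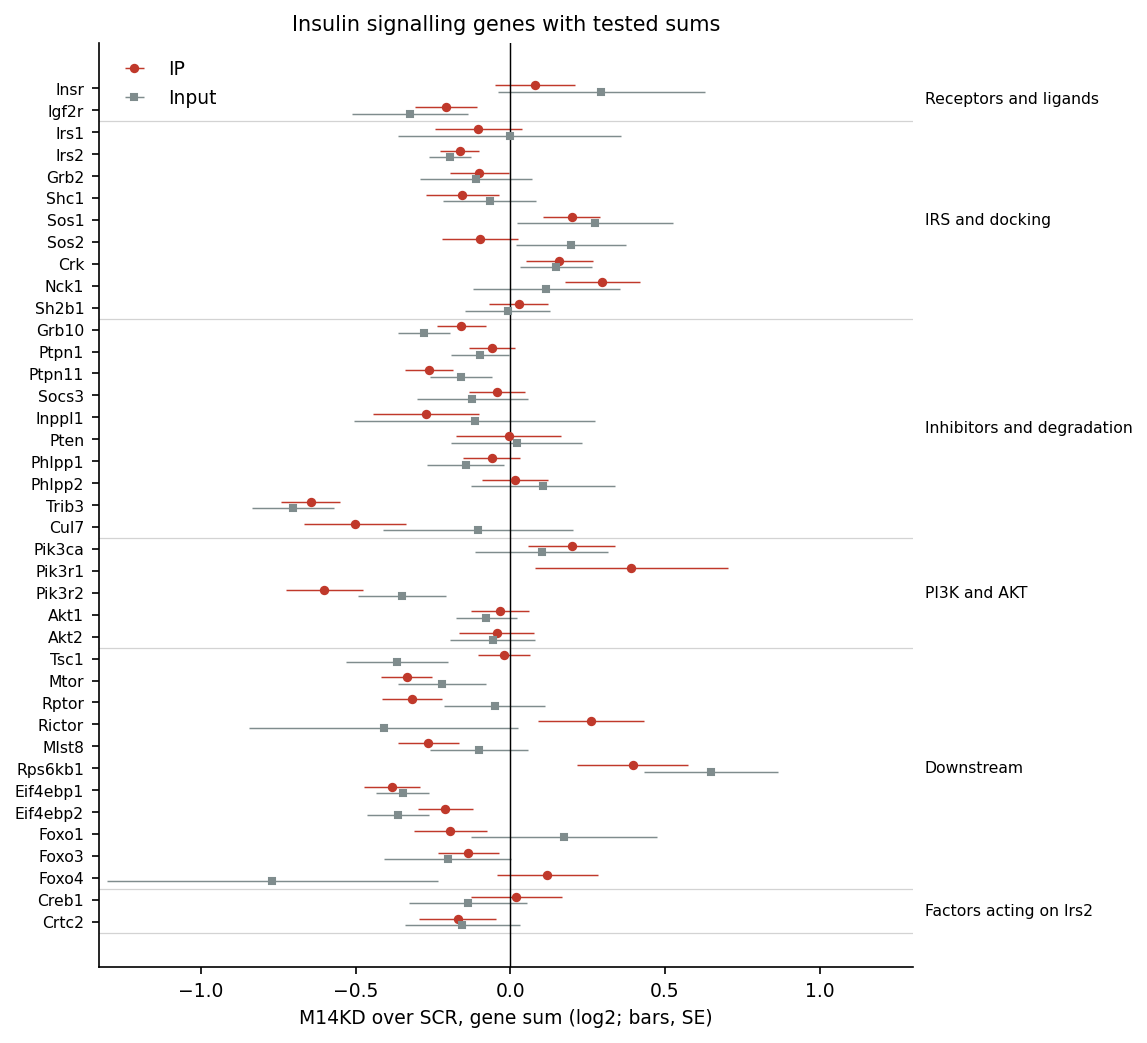
Log2 fold change of M14KD over SCR (x axis; bars, SE) of the summed sites of each tested insulin signalling gene, grouped by role, in IP (circles) and Input (squares); Pik3r1 was tested in IP alone. Irs2, at -0.16 in IP and -0.20 in Input, has among the smallest errors, 27 of 39 IP values lie below 0, and no value passed the adjusted test.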

How the data were processed

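Counts of reads per site for 8 libraries came from the single table that the authors deposited, and are whole and not normalized, per the file headers and the column totals. The submitters' processing notes name the tools STAR, cutadapt and UMI-tools and the build mm10. How sites were called, over which window and by which strand reads were counted, and tool versions were not given in the sources used here. A count of unused columns gave 0. Sites were assigned to genes by RefSeq spans of GRCm38.p6, and a protein-coding gene took precedence over other genes at the same site. The 1272 sites inside several protein-coding genes, the 14 inside several other genes and the 560 inside no gene stayed unnamed. Promoter sequences are from RefSeq on the same build, and no exon or genome sequence was used.

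Site counts, counts summed per gene and counts summed per group of sites (split at gaps over 5000 bases) were fitted over the whole table with edgeR 4.0.16 in R 4.3.3 (filterByExpr, TMM scaling, quasi-likelihood F-test, Benjamini-Hochberg adjustment, threshold 0.05). M14KD was set against SCR within 4 IP and within 4 Input libraries, and the interaction and IP over Input came from 1 model of all 8. Unequal change along a gene was tested with diffSpliceDGE, whose p-values are too small where sites share reads. SE was obtained by dividing a log2 fold change, without its sign, by the root of its F value. The tests of sites and of gene sums in IP, in Input and for the interaction were checked on simulated counts. So were the test of groups of sites in IP and that of a site against its gene's other sites in IP. Simulated counts were drawn separately for each site, gene or group, so the check does not cover neighbouring sites that share reads. The remaining tests, IP over Input among them, were not checked in this way. All 68 Irs2 sites passed the filters.

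IP and Input libraries of a genotype share replicate numbers in their titles. Their deviations from the group means correlated at 0.189 for replicates 1 and 2 and at 0.108 for replicates 3 and 4 over sites. With 2 libraries per group the deviations mirror each other, so each genotype gives 1 value, and the opposite matching would only turn its sign. The numbers were taken to pair the libraries in the ratios per replicate and in the replicate block, which these weak correlations do not establish. The main fits of all 8 libraries did not use the pairing. Set against counting noise, replicate pairs gave a chi-square per degree of freedom of 1.38 to 2.56, so no pair agreed within sampling noise.

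The members, gene lists and naming rule were chosen with earlier results of these data known. The rule names Irs2 sites called in a comparison (at most 5 each way), the 5 with the most IP reads, the 5 highest and lowest IP over Input in SCR, the first and last, list genes with an unadjusted p under 0.05, the Irs genes, Insr, Igf1r, Mettl14, Mettl3 and Wtap, and the 5 genes most like Irs2. Wtap, a partner of the writer complex, was at 0.16 in IP and 0.10 in Input, with no call. The alternatives tried were scaling by library totals, by DESeq2 size factors or on the least enriched 25% of features, the DESeq2 1.42.0 test, a filter at a mean count of 20 or none, each replicate left out, all 8 libraries in 1 model, the replicate block and 1 site per 100 bases. Groups of sites, their profile tests, and sums without the sites in the antisense gene or without the called sites were added after seeing the data.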

Additional observations from a re-analysis of the deposited data

How the results depend on the processing

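Of the 5 Irs2 sites called lower in IP, DESeq2 called 1 and no filter left 3, thinning to 1 site per 100 bases, which kept 1 of the 5, left 0, and leaving out a replicate left 0 to 5. DESeq2 gave no adjusted p for chr8:10986066. The Irs2 sum stayed below 0 in IP and in Input under every alternative, and passed the adjusted test under none. Its change of IP over Input, 0.01, was -0.0252 with scaling on the least enriched features, -0.00116 without the sites inside the antisense gene, -0.00348 to 0.0304 with a replicate left out, and 0.0806 with 1 site per 100 bases, the highest value. These values are within the error, and the cause of each sign was not tested.

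IP over Input depended most on scaling. In M14KD, sites called lower were 8 on library totals, 0 on the least enriched features and 7 of the thinned sites, with 14 to 23 when a replicate was left out. Those called higher were 48, 67 and 10. In SCR, lower calls were 9, 0 and 8, and higher calls 48, 65 and 10. On the least enriched features the sites 11006357, 11008161, 11004873 and 11006239 turned to 0.10, 0.30, 0.38 and 0.45 in SCR. The thinned table has fewer sites by construction.

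With the replicate block, the interaction of the sum was 0.01 (adjusted p = 0.978, edgeR), and IP over Input of the sum 0.46 in M14KD and 0.45 in SCR. Beside the start-side value in SCR, the block changed no other call of a sum or group of sites. The median SE of an Irs2 site was 0.18 in Input and 0.10 in IP.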
